A study of Mus musculus with 2 samples.

Results

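Classical monocytes low in MHC class II and without acute-phase transcripts made up 402 of 19087 kept barcodes in a single-cell survey of CD45+ lung leukocytes, 191 from mice that breathed diesel exhaust particles (DEP) and 211 from control mice. The cells were chosen by raw counts of unique molecular identifiers (UMIs), each standing for 1 captured transcript: at least 3 UMIs of Ly6c2 plus Ccr2, at least 3 of Vcan, F13a1 and Ms4a4c together, at most 1 of Ace plus Treml4, at most 3 of the C1q genes C1qa, C1qb and C1qc, none of Cd79a or Cd3e, S100a8 plus S100a9 under 1% of UMIs, fewer than 3 UMIs of Lrg1, Saa3, Prtn3, Lcn2 and Wfdc21 (the acute-phase set) and fewer than 10 of H2-Aa, H2-Ab1 and H2-Eb1. Barcodes below 500 UMIs or 200 genes, or with more than 10% mitochondrial UMIs, were left out beforehand. The values of these 22 genes therefore selected the cells and are given as a description.

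There were 2 libraries, 1 for each condition. The DEP exposed library came from Ccr2-/- mice labelled CD45.3+, exposed in a whole-body inhalation chamber to 500 µg/m3 of DEP for 1 hour on 5 days a week for 2 weeks. The control library came from Ccr2-/- mice labelled CD45.1+ that received no treatment. Ages, sexes and the number of animals pooled are not stated, and the CD45 label differs between the libraries together with the exposure, so the effects of the 2 cannot be told apart. The series design also names wild-type mice, whereas both labels give the Ccr2 knockout. Ccr2 was counted in members of both libraries, with 1505 UMIs in DEP exposed cells and 1147 UMIs in control cells. Where the knockout allele is disrupted relative to the 3′ end that the assay reads is not stated, so this check does not settle the genotype.

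Classical monocytes are made in the bone marrow, circulate in blood and enter inflamed tissue, where they can turn into macrophages or dendritic cells. Ly6c2 encodes a surface protein that marks them in the mouse. Ccr2 encodes the chemokine receptor by which they leave the marrow. A rise of MHC class II marks cells on the way to antigen presentation. Acute-phase transcripts such as Lrg1, Saa3 and Lcn2 mark a response to inflammatory cytokines.

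With 1 library per condition no test across animals was possible. Each ratio below carries an exact 95% interval that covers counting error only, which leaves out the spread between animals, libraries and cells. Levels are counts per 1000000 UMIs summed over the cells of a library (CPM), and a difference is called where it exceeds 1.5-fold. The libraries held 10000 barcodes with 67030914 UMIs (DEP exposed) and 10312 barcodes with 62047730 UMIs (control), of which 9396 and 9691 barcodes were kept. In these cells the median depth was 10413 UMIs and 2634 genes in DEP exposed members and 9031 UMIs and 2488 genes in control members. Mitochondrial genes took a median of 2.24% and 2.23% of UMIs. The libraries shared 23 barcodes, none of them a member.

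Among the genes that selected the cells, Ly6c2 was at 1423 CPM in DEP exposed and 1775 in control members, F13a1 at 679 and 743, and Ms4a4c at 603 and 564. Their levels follow from the choice of cells and do not check the label. Several monocyte genes outside the rule were higher in members than in other cells. Fn1, encoding fibronectin, was 6.996-fold above all other kept barcodes in the DEP exposed library and 10.4-fold in the control library, and Plac8 was 4.30-fold and 8.82-fold above them. Csf1r, the receptor for macrophage colony-stimulating factor, was 3.03-fold and 3.87-fold above the other barcodes. Chil3, which neutrophils and alveolar macrophages also express, was lower in members, at 0.848-fold and 0.631-fold of the other barcodes.

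Narrow sets of markers of other cell types were low in members. A set of 7 alveolar macrophage markers (Plet1, Krt79, Fabp1, Ear1, Marco, Car4 and Ctsk) summed to 9.11 CPM in DEP exposed members and 89.3 in control members. In control, 5 of 211 members had 3 or more of these UMIs, against 0 of 191 in the DEP exposed library. NK cell markers summed to 116 and 58.9 CPM, T cell markers to 32.9 and 34.0, B cell markers to 15.2 and 19.8 and neutrophil markers to 15.2 and 19.3. Over all these sets, 5 DEP exposed members (2.62%) and 9 control members (4.27%) held 3 or more UMIs of a type other than monocytes. Results that moved without these cells are given below with both values. Wider marker lists, without the genes of the rule, gave higher sums. An 11-gene alveolar macrophage list summed to 218 CPM in DEP exposed and 345 in control members, against 1778 and 1816 in other barcodes. The B cell list summed to 175 and 218, against 3125 and 4240, and the neutrophil list to 159 and 197, against 3595 and 3172.

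The share of these monocytes did not separate the libraries beyond counting error. They were 2.03% of kept barcodes in the DEP exposed library (exact interval 1.76 to 2.34%) and 2.18% in control (1.90 to 2.49%), a ratio of 0.934 (0.764 to 1.14). The same gate held 2 further classes. Cells with 10 or more MHC II UMIs and fewer than 3 acute-phase UMIs numbered 63 in the DEP exposed and 53 in the control library, a ratio of shares of 1.23 (0.837 to 1.80). Cells with 3 or more acute-phase UMIs numbered 221 and 16, a ratio of 14.2 (8.58 to 25.4). The low MHC II monocytes were accordingly 40.2% of the gate in the DEP exposed library and 75.4% in control.

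**Figure D1:**
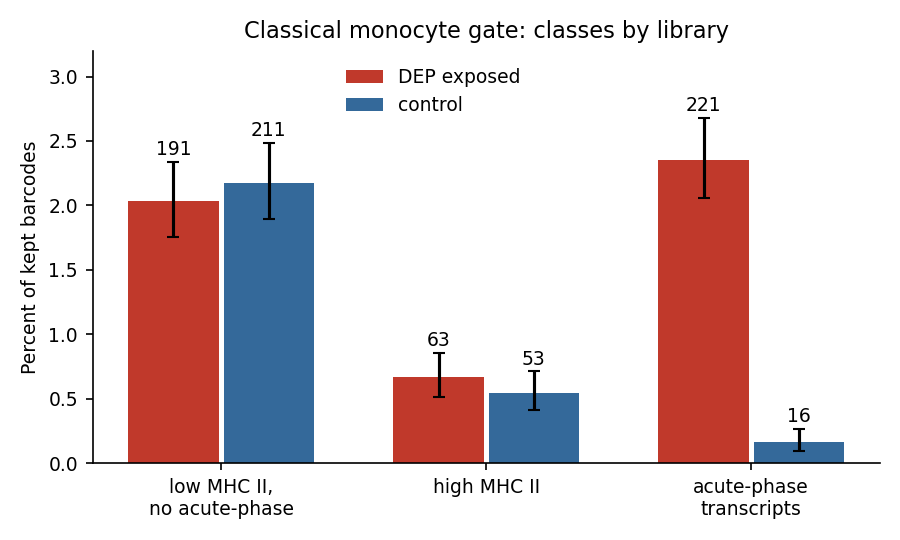
Bars give each class of the classical monocyte gate as a percentage of kept barcodes, DEP exposed in red and control in blue; error bars are exact 95% binomial intervals and the numbers are cells. The low MHC II class stands near 2% in both libraries (191 and 211 cells), while the class with acute-phase transcripts holds 221 cells in DEP exposed and 16 in control.

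The acute-phase limit had cells close to it on both sides. An acute-phase sum of exactly 2 UMIs, just inside the limit, was found in 26 DEP exposed and 5 control members, and a sum of 3, just outside it, in 15 and 1 cells. Members with 1 to 2 acute-phase UMIs were 55 of 191 (28.8%) in the DEP exposed library and 31 of 211 (14.7%) in control. Of the genes in the acute-phase set, Prtn3 gave the most UMIs in members, 37 in DEP exposed and 15 in control. The others gave 16 and 2 (Lrg1), 15 and 11 (Lcn2), 8 and 4 (Wfdc21) and 5 and 4 (Saa3). A sum of 1 to 2 can thus come from Prtn3 alone, and which gene gave it in each cell was not examined. At the MHC II limit the cells were few: 8 to 9 UMIs were seen in 5 DEP exposed and 2 control members, and 10 to 11 in 4 and 2 cells outside. Without the acute-phase limit the ratio of shares was 1.71 instead of 0.934, and with the gate as denominator it was 0.534. The monocyte share therefore depends on where acute-phase cells are placed.

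Comparing DEP exposed with control members, 5912 genes outside the rule had at least 50 UMIs summed over both. Of these, 161 (2.72%) were higher by more than 1.5-fold in DEP exposed members and 338 (5.72%) were lower. The median log2 ratio of all 5912 genes was -0.05, and 43.4% of them were higher. Only 20 genes were more than 2-fold higher and 40 more than 2-fold lower. Among the 1093 genes with at least 500 summed UMIs, where counting error is smaller, 7 were higher and 8 lower by more than 1.5-fold. Most transcripts were thus at similar levels in both libraries, and the exceptions follow by role. Counts of list genes past 1.5-fold between the libraries, given below, are to be read against the 2.72% and 5.72%.

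**Figure D2:**
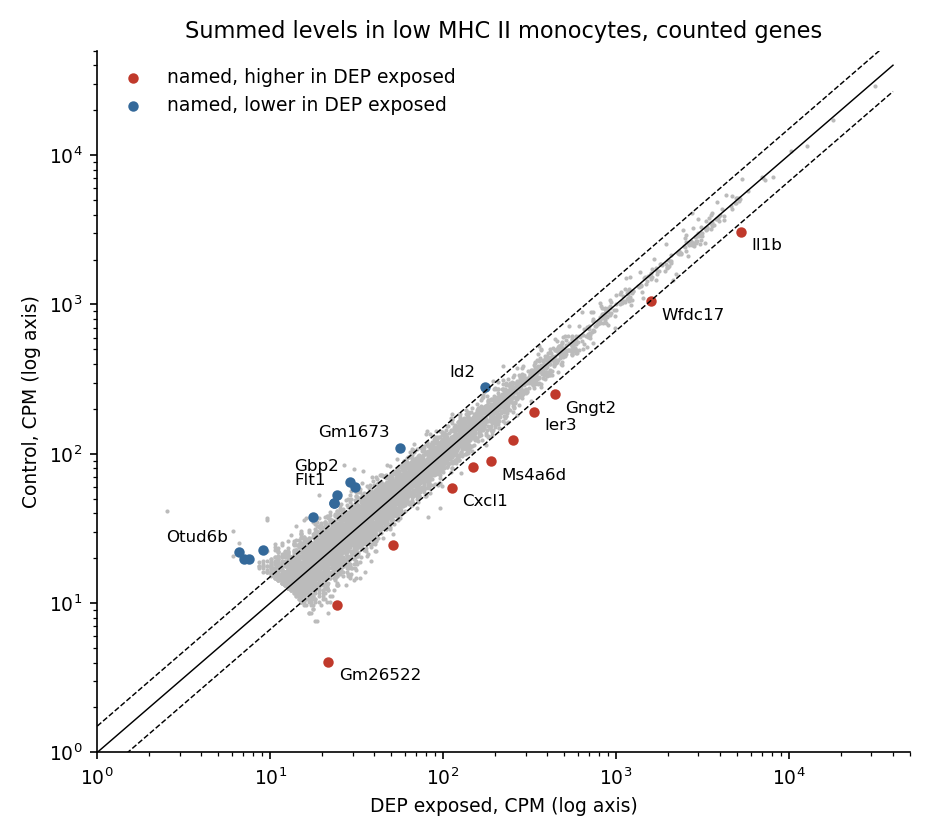
Each point is a gene with at least 50 summed UMIs in low MHC II monocytes, with its level in DEP exposed cells on the x axis and in control cells on the y axis (CPM, log axes); dashed lines mark 1.5-fold. Il1b, at 5287 in DEP exposed and 3073 in control, is the most abundant of the named genes, and most genes lie between the dashed lines.

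Inflammatory transcripts were among the genes that were higher. Il1b (mm10, GENCODE M21, chromosome 2, 129364570 to 129371139, protein-coding), the precursor of interleukin 1β, stood at 5287 CPM in DEP exposed members (10451 UMIs) and 3073 in control members (6055 UMIs), 1.72-fold (1.67 to 1.78). In single cells thinned to 3000 UMIs the median was 11.5 Il1b UMIs in DEP exposed and 5 in control members, with 10th to 90th percentiles of 0 to 36.1 and 0 to 27, so the cells of the libraries overlapped widely. After thinning, 79.5% of DEP exposed and 73.3% of control members had an Il1b UMI (90.1% and 85.8% unthinned), against 20.3% and 20.98% of thinned B cells, which should lack the gene. In B cells the Il1b log2 ratio was -0.29, the opposite direction, and in all other kept barcodes it was 0.38.

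Ier3 (chromosome 17, 35821684 to 35822923), an immediate early gene that NF-kB induces, was at 337 CPM in DEP exposed and 191 in control members, 1.76-fold (1.55 to 2.01). Cxcl2, a neutrophil chemoattractant, was at 2231 and 1596, 1.40-fold (1.34 to 1.46), short of the threshold. Nfkbia, the inhibitor that NF-kB induces against itself, was at 3261 and 2579, 1.26-fold (1.22 to 1.31). Cxcl1, a chemokine close to Cxcl2, was at 112 and 59.4, 1.89-fold (1.51 to 2.39), but 20.3% of its DEP exposed UMIs came from 1 cell, and without the cells that held markers of another type its log2 ratio was 0.55 instead of 0.92. Over the list of 26 counted inflammatory cytokine and NF-kB genes, 3 were more than 1.5-fold higher (Il1b, Cxcl1 and Ier3) and 1 lower, Acod1, and the list's median log2 ratio was 0.05. Among all 5912 counted genes the shares were 2.72% higher and 5.72% lower. Acod1, which makes itaconate, was at 30.4 CPM in DEP exposed and 79.7 in control members. Tnf was at 59.7 and 83.7, and Icam1, an adhesion ligand, at 96.6 and 143. The other 22 genes of the list were within 1.5-fold.

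The promoters of 4 of these genes are shown because Il1b, Cxcl1 and Ier3 lead the inflammatory genes that were higher, while Gbp2 leads the interferon-induced genes that were lower. Each is the 250 bases before the RefSeq start on the gene's strand, 5′ to 3′, build GRCm38.p6. Capitals mark matches on either strand to the NF-kB consensus (Cxcl1 and Ier3) or to the core of the interferon-stimulated response element, GAAA, any 2 bases and GAAA (Gbp2).
Il1b, chr2:129371140-129371389, minus strand: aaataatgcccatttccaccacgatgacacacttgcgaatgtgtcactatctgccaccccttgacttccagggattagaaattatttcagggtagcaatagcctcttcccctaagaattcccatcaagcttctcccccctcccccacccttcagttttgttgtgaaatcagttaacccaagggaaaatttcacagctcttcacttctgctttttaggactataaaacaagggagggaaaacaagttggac
Cxcl1, chr5:90890995-90891244, plus strand: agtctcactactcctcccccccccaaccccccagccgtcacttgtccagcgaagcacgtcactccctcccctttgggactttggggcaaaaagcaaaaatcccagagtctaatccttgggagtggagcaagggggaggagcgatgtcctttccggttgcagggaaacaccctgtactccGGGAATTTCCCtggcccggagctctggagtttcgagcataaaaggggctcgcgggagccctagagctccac
Ier3, chr17:35821463-35821712, plus strand: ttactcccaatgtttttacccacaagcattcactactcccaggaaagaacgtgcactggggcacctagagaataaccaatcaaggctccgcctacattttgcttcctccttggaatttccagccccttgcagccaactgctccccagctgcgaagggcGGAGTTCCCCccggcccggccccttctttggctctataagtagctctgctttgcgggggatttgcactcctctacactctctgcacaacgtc
Gbp2, chr3:142620413-142620662, plus strand: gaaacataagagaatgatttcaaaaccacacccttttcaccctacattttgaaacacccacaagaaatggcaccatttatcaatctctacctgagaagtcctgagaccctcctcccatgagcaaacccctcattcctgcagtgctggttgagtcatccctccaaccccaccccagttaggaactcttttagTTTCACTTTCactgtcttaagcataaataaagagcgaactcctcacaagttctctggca
Cxcl1 held 2 overlapping NF-kB matches, Ier3 held 1 and the Il1b window held neither motif. Among 27025 genes with a promoter in the table, 4.46% had the NF-kB consensus and 3.46% had the interferon element core. The NF-kB consensus was found in 3 of the 7 matched genes of the 12 chosen as higher (Cxcl1, Ier3 and Atr) and in 2 of the 11 matched genes of the 12 chosen as lower (Flt1 and Tardbp). Of the inflammatory list, 13 of 22 matched promoters held it, most of them in genes that were not called, among them Cxcl2 and Nfkbia. GCGTG, the core of the element bound by the aryl hydrocarbon receptor, was present in 30.9% of all promoters, in 1 of the 7 named higher, in 4 of the 11 named lower and in 12 of 22 of the inflammatory list. A match is a description of letters and no measure of binding.

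Members were also split by the acute-phase UMIs that they carried, and the difference between the splits was not tested. In members with 0 acute-phase UMIs, 136 in the DEP exposed and 180 in the control library, Il1b was at 4409 and 3043 CPM, 1.45-fold (1.40 to 1.51). In members with 1 to 2 such UMIs, 55 and 31 cells, it was at 7129 and 3226, 2.21-fold (2.07 to 2.37). Ier3 was 1.50-fold (1.29 to 1.74) in cells with none and 2.69-fold (1.99 to 3.70) in cells with 1 to 2. Gngt2, from the nonclassical monocyte list, was 1.55-fold (1.36 to 1.76) and 2.39-fold (1.85 to 3.12). The ratios of these 3 genes were higher in cells with 1 to 2, which was not so for every gene. Nfkbia was 1.21-fold (1.16 to 1.26) and 1.30-fold (1.20 to 1.40), with overlapping intervals. Wfdc17 was 1.49-fold (1.40 to 1.59) and 1.37-fold (1.23 to 1.54), and Acod1 was lower in both splits, at 0.305-fold (0.194 to 0.464) and 0.369-fold (0.227 to 0.596). Few cells carried Acod1. In cells with 1 to 2, 1 cell gave 50% of its UMIs in DEP exposed and 1 cell 43.2% in control. In cells with none these shares were 25% and 16.8%.

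Cxcl1 did not hold outside the cells near the limit. It was at 65.0 CPM in DEP exposed and 70.5 in control members without acute-phase UMIs, 0.922-fold (0.690 to 1.23), and at 212 and 3.09 (135 UMIs and 1 UMI) in those with 1 to 2. Of these cells with 1 to 2, 14 of 55 held the gene in the DEP exposed library and 1 of 31 in control. Among DEP exposed cells, 1 cell gave 51.7% of the Cxcl1 UMIs in the class with none and 26.7% in the other class. In control cells with none, 1 cell gave 19.0%. Gbp2, at 32.1 and 50.4 in cells with none, was at 21.9 and 139 in cells with 1 to 2. Id2, a transcriptional inhibitor, was at 199 and 261 and then at 127 and 377. In the 31 control cells 1 cell gave 31.1% of the Gbp2 and 32.0% of the Id2 UMIs, and 3 of those cells, like 3 of the 55 DEP exposed ones, held markers of another cell type. Chil3 ran the other way, at 2201 and 1415 CPM in cells with none and 2005 and 1673 in cells with 1 to 2. In the control cells with 1 to 2, however, 1 cell gave 38.6% of the Chil3 UMIs.

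**Figure D3:**
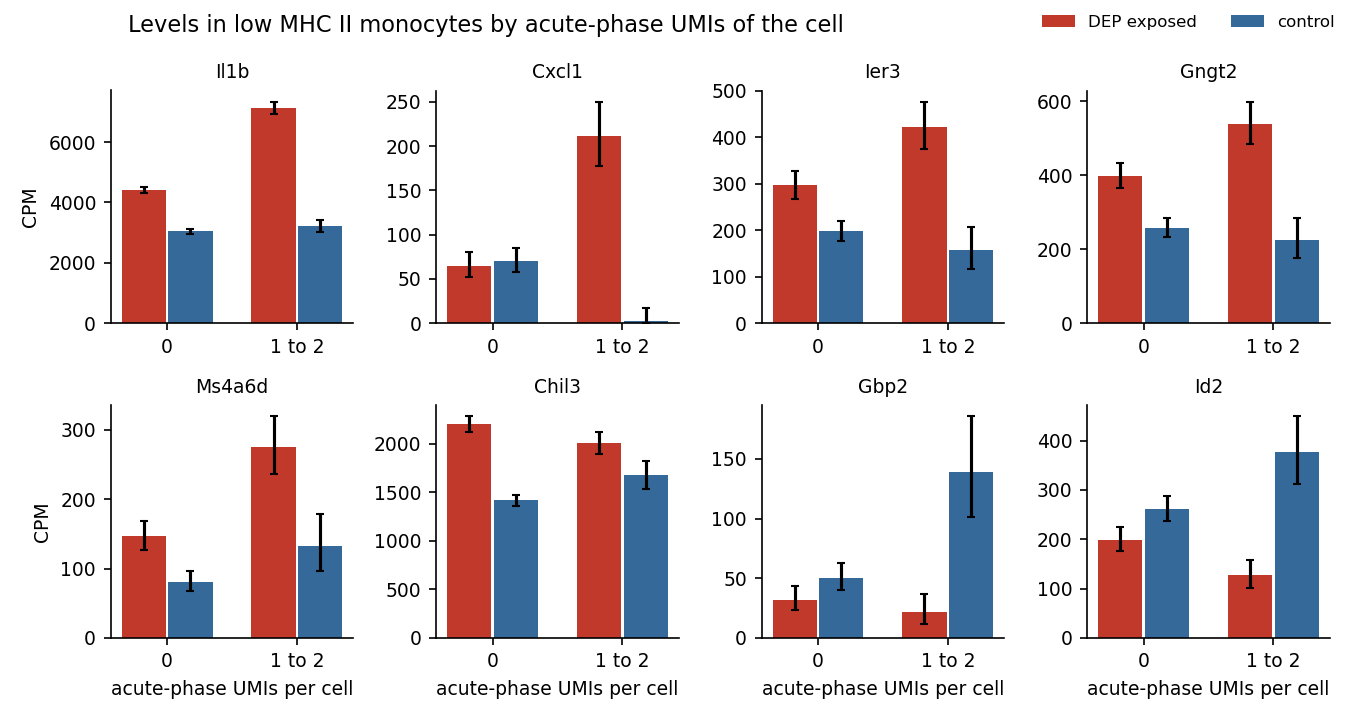
Levels (CPM) of 8 genes in low MHC II monocytes, split by the acute-phase UMIs of the cell (0, or 1 to 2), DEP exposed in red and control in blue, with exact 95% counting intervals. Il1b is higher in DEP exposed cells in both classes, at 4409 and 7129 against 3043 and 3226, whereas Cxcl1 is higher only in the class with 1 to 2.

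Other named genes that were higher included surface proteins and secreted products of monocytes. Ms4a6d (chromosome 19, 11586604 to 11604849), a membrane protein of the same gene family as Ms4a4c, was at 188 CPM in DEP exposed and 89.3 in control members, 2.11-fold (1.76 to 2.54). Its UMIs were found in 37.4% and 19.0% of thinned members (65.4% and 44.5% unthinned), against 0.581% and 0.458% of thinned B cells. Gngt2, a G protein subunit more typical of nonclassical monocytes, was at 444 and 252, 1.76-fold (1.57 to 1.97), and was found in 67.9% and 43.3% of thinned members (83.2% and 70.1% unthinned), against 24.5% and 21.4% of thinned B cells. Wfdc17, a secreted protein with a whey acidic protein domain, was at 1585 and 1052, 1.51-fold (1.42 to 1.59). It was under 1.5-fold in 8 of 18 alternative settings, with log2 ratios of 0.40 to 0.85 over all 18 beside 0.59. Hfe, a regulator of iron uptake, was at 51.1 and 24.4, 2.10-fold (1.47 to 3.02). Atr, the kinase that signals stalled DNA replication, was at 24.3 and 9.64, with 48 and 19 UMIs behind those values. In all other kept barcodes the log2 ratios of Ms4a6d, Wfdc17, Gngt2, Hfe and Atr were 1.04, 1.08, 0.53, 0.39 and -0.09. In members they were 1.07, 0.59, 0.81, 1.06 and 1.31. The other barcodes include 221 acute-phase monocytes in DEP exposed and 16 in control, so their ratios can also follow the mix of cells. Whether the higher levels of Ms4a6d and Wfdc17 were particular to members was not tested.

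Several of the higher genes were also higher in cells that are not monocytes. AY036118 was at 252 and 123 CPM, Gm10076 at 149 and 81.7, and Gm26522 at 21.8 and 4.06, with log2 ratios of 1.03, 0.86 and 2.35. Their log2 ratios in B cells were 0.57, 0.78 and 0.56. All 3 are annotated as long noncoding RNAs, AY036118 on chromosome 17 (39847113 to 39848035), Gm10076 on chromosome 14 (105681828 to 105682211) and Gm26522 on chromosome 7 (88278787 to 88283529). The log2 ratio of Cxcl1 was 0.75 (0.39 to 1.12) in B cells, beside 0.92 in members. Those of Ms4a6d, 0.29 (-0.51 to 1.11), and Ier3, 0.21 (-0.11 to 0.54), had intervals that include 0 in B cells. The B cell ratios of Hfe (-0.89) and Il1b (-0.29) had the opposite sign. Whether a difference shared by the whole library contributed to the higher levels was not tested.

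Genes that were lower were mostly sparse. Gbp2 (chromosome 3, 142620602 to 142638008), a guanylate-binding protein that interferon γ induces, was at 28.8 CPM in DEP exposed and 65.0 in control members, 0.444-fold (0.319 to 0.611). It was found in 7.89% and 14.3% of thinned members (19.4% and 25.1% unthinned), against 1.67% and 2.97% of thinned B cells. Id2 was at 176 and 280, 0.627-fold (0.546 to 0.718), with a log2 ratio of -0.65 in B cells beside -0.67 in members. Gm1673, a protein-coding gene on chromosome 5 (33983433 to 33985013), was at 56.2 and 110, 0.510-fold (0.402 to 0.644), and was found in 14.2% and 25.2% of thinned members (33.0% and 48.8% unthinned) and in no thinned B cell of either library. Flt1, a receptor for vascular endothelial growth factor, was at 24.3 and 52.8, 0.460-fold (0.320 to 0.654). Itga1, the α1 integrin chain, and Wnt11, a secreted Wnt ligand, each had 46 and 92 UMIs, 0.498-fold (0.342 to 0.717).

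The remaining 6 named genes were seen at 13 to 61 UMIs in DEP exposed and 39 to 118 in control members. They were Otud6b (a deubiquitinase), Rptor (a subunit of the mTORC1 kinase complex), Sh3bp2 (an adaptor of immune receptor signalling), Tardbp and Mfap1b (both tied to RNA splicing) and Zfp652 (a zinc finger repressor). Otud6b was the lowest of these, at 6.58 and 21.8 CPM, 0.301-fold (0.149 to 0.571). Of the 24 genes that the naming rule chose, 23 kept their direction under 18 alternative settings. Of the 24, 15 also stayed past 1.5-fold in all 18. The settings that changed only the minimum count use the same cells and cannot change a gene's ratio. The tally of 18 therefore overstates how many settings could have failed, and the genes were chosen as extremes of these same data.

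**Figure D4:**
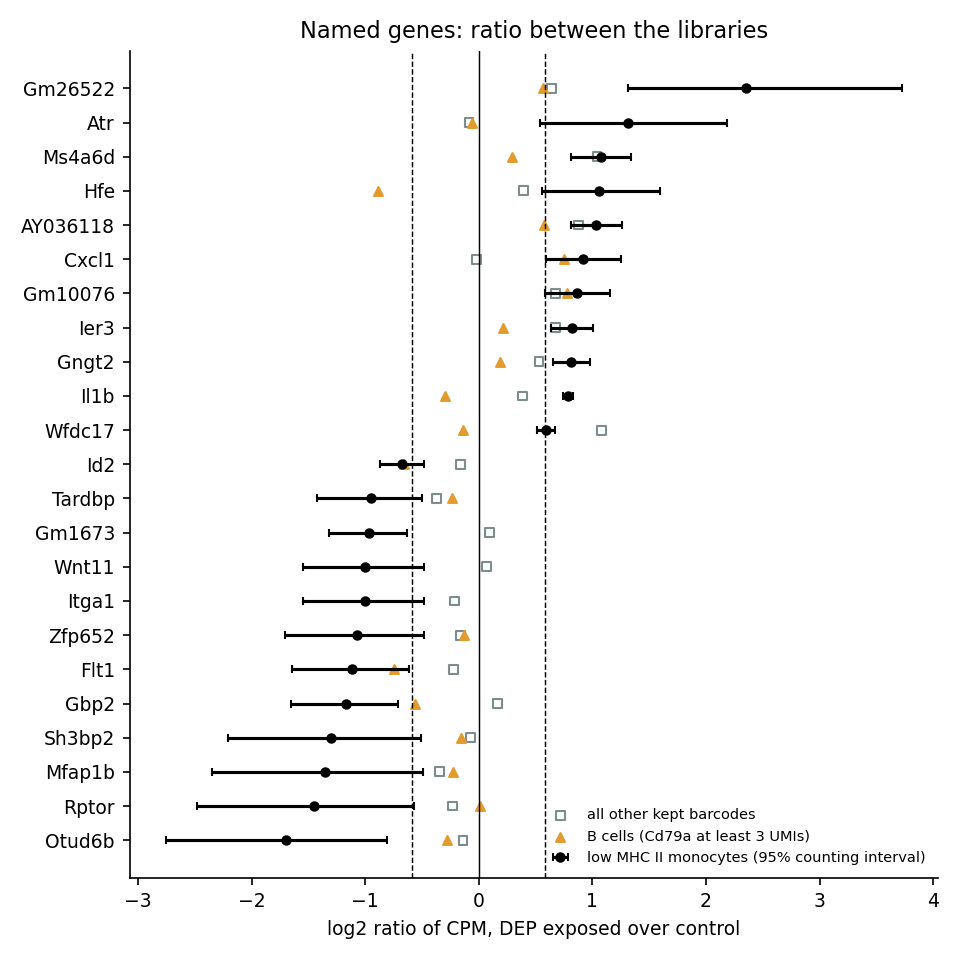
Log2 ratio of DEP exposed over control for the named genes, in low MHC II monocytes (black, with exact 95% counting intervals), in all other kept barcodes (grey squares) and in B cells (orange triangles, absent where UMIs were too few). Dashed lines mark 1.5-fold. Il1b has the narrowest interval, and Gm10076 has a similar ratio in B cells (0.86 in members and 0.78 in B cells).

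Interferon-induced genes, many of them antiviral, had a list median near 0. Of 45 counted, 2 were more than 1.5-fold higher (Usp18 and Ifit2) and 4 lower (Gbp2, Oasl1, Mx1 and Ifit1), at a median log2 ratio of -0.02. These counts are near the shares over all 5912 counted genes, 2.72% higher and 5.72% lower. The most abundant, Ifitm3, which blocks viral entry, was at 5786 CPM in DEP exposed and 5712 in control members, 1.01-fold (0.987 to 1.04). Ifi27l2a was at 2544 and 2639, and Ifitm2 at 2615 and 2115. Their summed level was 15973 CPM in DEP exposed and 15494 in control members. In the other kept barcodes the same list had a median log2 ratio of 0.36 and sums of 5415 and 3675 CPM. Those barcodes differ in their mix of cells, with 221 acute-phase monocytes in DEP exposed and 16 in control. Whether the list was higher within any of their cell types was not tested.

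Maturation markers likewise differed little. Of 16 counted classical monocyte markers that the rule did not use, none passed 1.5-fold, with a median log2 ratio of 0.05. Chil3, a chitinase-like lectin of early monocytes and neutrophils, was at 2138 CPM in DEP exposed and 1458 in control members, 1.47-fold (1.40 to 1.54). Hp, encoding haptoglobin, was at 981 and 690, 1.42-fold (1.33 to 1.52), and Mmp8, a neutrophil collagenase, at 123 and 90.3, 1.37-fold (1.12 to 1.67). None of the 12 early myeloid genes passed the threshold, and the precursor genes Gfi1, Mpo and Ms4a3 had no UMI in members. Lyz2, encoding lysozyme, was at 31434 and 29237. Vcan, which the rule used, was at 204 and 86.8 and so is given without comparison.

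Genes of nonclassical monocytes, to which classical ones convert, had a median log2 ratio of -0.42 over 9 counted genes, with Gngt2 higher and Cd9, Spn and Ear2 lower by more than 1.5-fold. Cx3cr1, the fractalkine receptor, was at 142 CPM in DEP exposed and 187 in control members, and Nr4a1, the factor nonclassical monocytes depend on, at 778 and 742. Cd9 was at 26.8 and 84.8, and Mrc1, the mannose receptor of macrophages, at 9.61 and 36.0. Both genes are also expressed by alveolar macrophages. Without the 14 cells that held markers of another type, the log2 ratio of Cd9 was -0.42 instead of -1.65, that of Mrc1 was -1.01 instead of -1.88, and that of Ear2 was -0.01 instead of -0.75. The list median was then -0.39.

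Among MHC II pathway genes that the rule did not use, none of 8 passed 1.5-fold. Cd74, the invariant chain, was at 369 CPM in DEP exposed and 494 in control members, 0.747-fold (0.677 to 0.823). Cd74 is induced together with the genes that set the MHC II limit. Of 19 counted MHC class I and peptide supply genes only Nlrc5, the transactivator of that pathway, passed 1.5-fold, at 9.11 and 17.8. B2m was at 2492 and 2788. Monocyte-derived dendritic cell genes included Cd209a, a lectin, at 24.3 and 46.2, and Clec10a, another, at 41.0 and 26.4.

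Chemokine and trafficking genes differed in both directions. Of 11 counted chemokines, Cxcl1 was more than 1.5-fold higher and Cxcl16 and Ccl5 lower. For these and the adhesion genes, the shares over all 5912 counted genes were 2.72% higher and 5.72% lower. Ccl5 was at 221 CPM in DEP exposed and 385 in control members, but 1 cell held 27.3% of the UMIs in control, and without the cells with markers of another type its log2 ratio was -0.49 instead of -0.80. Ccl6 was at 1136 and 1496. Of 19 adhesion genes, 15 were lower and 4 higher, and the list's median was -0.21 (log2), beside -0.05 over the 5912 genes and -0.07 for the same list in the other kept barcodes. Past 1.5-fold were F11r and Jaml (higher) and Cd9, Spn and Itga1 (lower). Cd44, the hyaluronan receptor, was at 632 and 888, 0.712-fold (0.662 to 0.766), Itgal, the α chain of LFA-1, at 173 and 259, 0.667-fold (0.580 to 0.766), and Thbs1, encoding thrombospondin, at 1940 and 2539. In B cells the log2 ratios of Cd44 and Itgal were -0.45 and -0.51, close to the -0.49 and -0.58 in members.

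Genes that sense or detoxify exhaust components were not higher as a group. The aryl hydrocarbon receptor, which binds polycyclic aromatic compounds, had 5 counted genes in its list. Ahr itself was at 108 CPM in DEP exposed and 102 in control members, 1.06-fold (0.871 to 1.29). Its classical targets Cyp1a1, Cyp1b1, Nqo1 and Aldh3a1 had no UMI among 1976754 in DEP exposed and 1970232 in control members, and 3 counts, taken as the limit that a count of 0 allows, correspond to 1.52 CPM in each. Il1b, listed there too, was the 1 gene of that list past 1.5-fold. Of 27 NRF2 and oxidative stress genes, Gclm was higher and Gclc lower by more than 1.5-fold. Both encode subunits of the enzyme that begins glutathione synthesis, with 38 and 24 UMIs of Gclm and 20 and 36 of Gclc. Hmox1, heme oxygenase, was at 34.4 and 48.7, and Slc7a11, the cystine transporter, at 76.4 and 110.

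Energy metabolism showed small differences spread over many genes. Of 53 nuclear-encoded genes of oxidative phosphorylation, 43 were higher and 10 lower in DEP exposed members and none passed 1.5-fold, against 43.4% of all counted genes that were higher. The median log2 ratio was 0.17, beside 0.11 for the same list in the other kept barcodes. In members without acute-phase UMIs it was 0.08, and also 0.08 in cells thinned to 3000 UMIs. Atp5g1, a subunit of ATP synthase, was at 222 CPM in DEP exposed and 167 in control members, 1.33-fold (1.15 to 1.54). Of 21 glycolytic and hypoxia genes none passed 1.5-fold, with Gapdh at 897 and 723 and Eno1 at 274 and 214.

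Innate sensing receptors included 2 of 23 genes that were higher by more than 1.5-fold. Over all 5912 counted genes, 2.72% were higher and 5.72% lower. Fcgr4, a receptor for IgG, was at 32.9 CPM in DEP exposed and 14.7 in control members (65 and 29 UMIs), and Trem3, an activating receptor, at 51.6 and 28.9. Cd14, the lipopolysaccharide co-receptor, was at 2885 and 2666. Of 29 myeloid transcription factors none was called higher, and Maf and Id2 were lower, with Maf at 43.0 and 72.1. Cebpb was at 2712 and 2661 CPM. Of 26 immediate early and dissociation stress genes none passed 1.5-fold. Jun was the highest of them, at 737 and 549 (log2 ratio 0.42), with 0.57 in B cells, and Hsp90aa1, a chaperone, the lowest (log2 ratio -0.47).

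**Figure D5:**
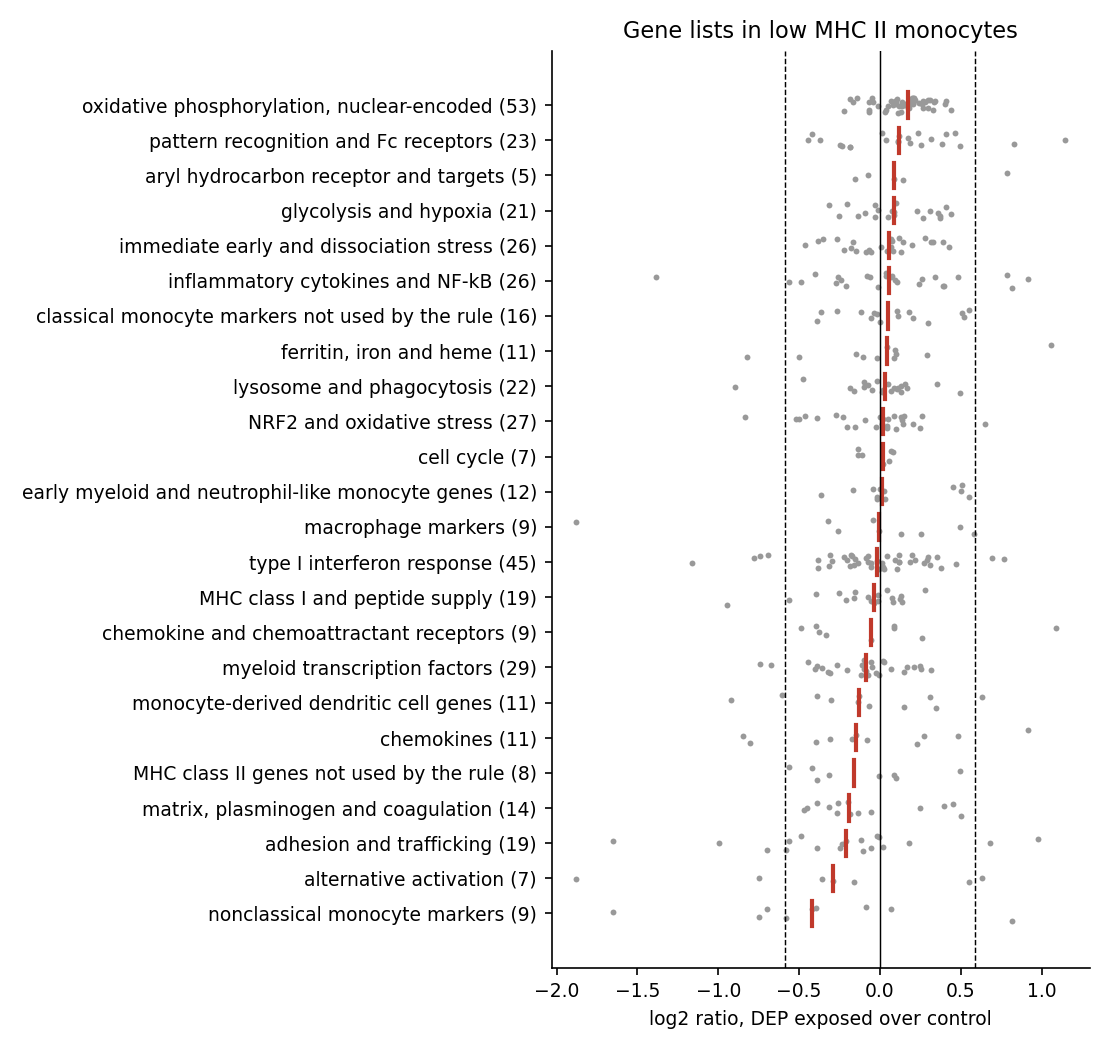
Log2 ratios of DEP exposed over control in low MHC II monocytes for the counted genes of 24 lists (grey points, number of genes in brackets), with the list median as a red bar and dashed lines at 1.5-fold. Medians lie between -0.42 (nonclassical monocyte markers) and 0.17 (oxidative phosphorylation), and most genes lie between the dashed lines.

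Inflammatory and chemokine transcripts varied widely among cells of the same library. After thinning to 3000 UMIs, the variance over the mean (Fano factor) had a median of 1.05 over 4641 genes in DEP exposed and 1.06 in control members. Il1b had 17.4 and 15.9, Cxcl2 19.9 and 14.1, Ccl5 12.8 and 15.9, Cxcl10 12.7 and 12.2 and Ccl4 13.5 and 12.1. Other genes had higher values in 1 library, with Gm42418 at 40.5 and 10.99, Gzma, an NK cell granzyme, at 20.3 and 5.64 and Malat1 at 11.03 and 16.3. Cxcl10, a ligand of the T cell receptor CXCR3, had a median of 0 UMIs in thinned cells and a 90th percentile of 6.2 UMIs in DEP exposed and 4.2 in control members. Chil3 had Fano factors of 8.31 and 7.56, with medians of 4 and 2 UMIs. Lyz2 had medians of 96.5 and 85.5 UMIs and 10th percentiles of 53 and 55.9.

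Members also varied with their own MHC II level, which the rule bounded at 9 UMIs. There were 92 DEP exposed and 86 control members with none, 89 and 113 with 1 to 4, and 10 and 12 with 5 to 9. Ly6c2 was at 1694, 1215 and 1164 CPM along these steps in DEP exposed members and at 1852, 1726 and 1721 in control members. Il1b was at 4805, 5420 and 7593 in DEP exposed and 2285, 3567 and 3741 in control members, so that DEP exposed cells were higher at each step. Chil3 ran lower along the steps, at 2493, 2002 and 742 in DEP exposed and 1538, 1422 and 1253 in control members. The top step rests on few cells.

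Set beside monocytes of high MHC II in the same library, members were compared for the genes that differed in both libraries. Among 4739 counted genes, 228 (4.81%) were higher and 141 (2.98%) lower by more than 1.5-fold in both. Slpi, a secreted protease inhibitor, was at 460 CPM in members and 92.3 in high MHC II cells of the DEP exposed library, and at 516 and 92.2 in control. Fn1 was at 1375 and 404 in DEP exposed and 1652 and 461 in control. Also higher in members were Mgst1 (a membrane glutathione transferase), Mmp8, C3 (the central complement component), Hopx, Cd177 and Cxcl10, by 2.39-fold to 4.52-fold in DEP exposed and 3.15-fold to 4.04-fold in control.

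Lower in members were antigen presentation and dendritic genes, which move with the MHC II limit. Cd209a was at 24.3 CPM in members and 264 in high MHC II cells of the DEP exposed library, and at 46.2 and 535 in control. Klrd1 was at 7.08 and 94.9 in DEP exposed and 11.2 and 97.8 in control, and Tmem176b at 194 and 603 in DEP exposed and 145 and 524 in control. Counted in each library by itself, 10.4% of the 4739 genes were higher in members in DEP exposed and 14.7% in control, and 5.74% and 8.93% were lower. Of 12 early myeloid genes, 9 in DEP exposed and 8 in control were more than 1.5-fold higher in members, and none lower. Of 13 monocyte-derived dendritic cell genes, 10 in each library were lower. Of 42 interferon genes, 14 in DEP exposed and 26 in control were higher. Of the high MHC II cells, 2 of 63 in DEP exposed and 7 of 53 in control held 3 or more alveolar macrophage UMIs. The part of those cells in the result was not tested.

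Beside monocytes with acute-phase transcripts, compared in the DEP exposed library alone because control had 16 such cells, 266 of 6980 genes (3.81%) were higher and 761 (10.9%) lower in members. The lowest were genes of alveolar macrophages, Ear1 at 1.01 CPM in members and 153 in acute-phase cells, Fabp1 at 1.01 and 146, Plet1 at 2.53 and 237 and Marco at 0.506 and 45.2. These came with 30 of 221 acute-phase cells that held 3 or more such UMIs, against 0 of 191 members, and the median depth was 15448 UMIs in acute-phase cells and 10413 in members. Leaving those 30 cells out, 355 of 6351 genes (5.59%) were higher and 314 (4.94%) lower by more than 1.5-fold.

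In that comparison without cells that held alveolar macrophage UMIs, Cxcl10 was at 559 CPM in members and 139 in acute-phase cells, 4.02-fold (3.58 to 4.51). Hpgd, which inactivates prostaglandins, was at 104 and 27.1, 3.85-fold (2.96 to 5.06), and Rsad2, an antiviral enzyme, at 64.2 and 19.9, 3.23-fold (2.35 to 4.49). Lower in members were Il1a, the other interleukin 1 precursor, at 20.7 and 82.2, 0.252-fold (0.177 to 0.352), Csf3, encoding granulocyte colony-stimulating factor, at 11.1 and 33.6, and C5ar1, the C5a receptor, at 65.3 and 168. Of 44 interferon genes, 12 were higher and 1 lower, and of 11 chemoattractant receptors, 1 was higher and 7 lower.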

How the data were processed

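Per the labels, CD45+ lung cells were sorted after collagenase V and DNase I digestion and libraries were made with 10x Genomics 3′ v3.1 chemistry. The authors deposited raw UMI counts per gene and barcode, made with Cell Ranger (3.1.0 per the file headers, 3.1.3 per the submitters' processing notes) on mm10. The matrices hold 31053 genes, of which 30934 IDs matched GENCODE M21. How the authors chose barcodes is not given in the sources used here.

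Counts were summed over the cells of each library, divided by their total and scaled to 1000000 (CPM). Log2 ratios added 0.5 to each count, and fold changes added none. Intervals are exact at 95% (Clopper-Pearson for shares, Poisson for levels, conditional binomial for ratios) and cover counting error only. Genes needed 50 summed UMIs. The named genes were the 12 highest and 12 lowest by the interval bound nearest to no difference. Not all genes that this rule chose are reported here. Rule, mitochondrial, ribosomal protein, haemoglobin, Xist, Y-linked and antigen receptor genes were left out, as were genes with over 25% of UMIs in 1 cell or with a level in members under 0.5 times that of other barcodes. For each list, the 2 most abundant and the 2 by the same bound were also eligible. Tnf, Icam1, Hmox1, Clec10a, Cx3cr1 and the other list genes outside this rule were chosen after their values were seen. Cells, members and gene lists were chosen with earlier results of these data known. A neighbour-based doublet score (30 neighbours, 2 simulated doublets per barcode) marked 752 DEP exposed and 799 control barcodes, 3 and 5 of them members. These cells stayed in the main values and were left out as an alternative. Cells were thinned with seed 7, and those under 3000 UMIs (1 in each library) were left out there. The counting functions were tested on simulated data. Python 3.11.15, numpy 2.4.6, scipy 1.17.1, pandas 2.3.3, scikit-learn 1.9.0 and matplotlib 3.10.9 were used. Alternatives changed the cell filter, the rule's limits, the depth, the weighting, the centring, the minimum count and the added count. A setting without cells holding markers of other types was added after seeing the data.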

Additional observations from a re-analysis of the deposited data

How the results depend on the processing

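The ratio of shares (0.934) was 1.71 without the acute-phase limit and 0.534 with the gate as denominator. Of the counts of genes past 1.5-fold (161 higher, 338 lower), no acute-phase limit gave 383 and 519, thinning gave 94 and 166, a minimum count of 20 gave 411 and 709, and a minimum count of 100 gave 53 and 141, where fewer or more genes were counted by construction. The median log2 ratio of oxidative phosphorylation genes (0.17) was 0.078 in cells with no acute-phase UMI, 0.078 after thinning, 0.22 when centred and 0.23 without the acute-phase limit. Without that limit the interferon list was at -0.28, the aryl hydrocarbon receptor list at -0.18 and the chemoattractant receptor list at 0.34. The early myeloid list was at -0.046 with limits scaled to 10000 UMIs, and the cell cycle list at -0.70 without the MHC II limit. The cause was not tested. Cxcl1 reversed to -0.11 in cells with no acute-phase UMI and Ear2 to 0.20 without the acute-phase limit. Named genes also came under 1.5-fold, in the same direction: in cells with no acute-phase UMI Il1b (0.53), Ier3 (0.58), Wnt11 (-0.58) and Id2 (-0.39), with scaled limits Gbp2 (-0.42), and after thinning Flt1 (-0.54), Zfp652 (-0.28) and Cxcl1 (0.48), without the deepest cells Id2 (-0.56), and without cells holding other markers Cxcl1 (0.55). Wfdc17 was under it in 8 of 18 settings, lowest after thinning (0.40). The 18 include the changes of the minimum count, which leave each gene's ratio as it was. The other 463 values of shares, counts and list medians stayed within the range set for each. For shares this was the counting interval and for counts 1.5 times the count. For list medians it was an interval drawn from the spread of the list's own genes. That interval is wide for short lists, so staying within it says little there. Leaving out a replicate was not possible with 1 library per condition. No paired analysis was possible because the labels carry no replicate numbers. Genes near 50 summed UMIs have wide intervals, so their absence from the called genes says little.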
